A study of Mus musculus with 10 samples.

Results

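The genes described here are 10 transporters of bile acids and other organic anions in mouse liver, taken by symbol from the gene count table (10 of its 55291 genes): Slc10a1, Slco1a1, Slco1a4, Slco1b2, Abcb11, Abcb4, Abcc2, Abcc3, Abcc4 and Slc51b. All 10 were found and all 10 passed the filter on low counts. They were measured by bulk RNA-seq of 10 livers, 2 each of NTC-Veh and sgBap1-Veh mice and 3 each of NTC-CCl4 and sgBap1-CCl4 mice. The mice were females of 16 to 20 weeks, and every group carried a Cas9 transgene silenced by a lox-flanked stop cassette and received 1e12 particles of an AAV8 virus with a guide RNA and Cre. The guide was a non-targeting control (NTC) or one against Bap1 (sgBap1), a deubiquitinating enzyme. Cre was driven by the Tbg promoter, which is active in hepatocytes, so other liver cells were not meant to be edited. At day 10 the mice were given olive oil (Veh) or carbon tetrachloride (CCl4, 1 part to 9 parts of olive oil) intraperitoneally at 10 µL per g, and livers were taken 48 h later. CCl4 is a solvent that hepatocyte enzymes turn into a radical that kills cells around the central vein. The comparisons ask how injury, Bap1 editing and the combination change the transcripts.

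Hepatocytes take bile acids and other organic anions from sinusoidal blood and secrete them into the bile canaliculus, the flow that drives bile formation. Uptake is by Slc10a1 (NTCP), which couples bile acids to sodium, and by the sodium-independent OATP family (Slco1a1, Slco1a4, Slco1b2). Export into bile is by Abcb11 (BSEP, bile salts), Abcb4 (MDR2, which moves phosphatidylcholine) and Abcc2 (MRP2, conjugated organic anions). Abcc3, Abcc4 and Slc51b (the β subunit of the OSTα-OSTβ pair) are carriers of the basolateral membrane that return bile acids and conjugates to blood.

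Promoter sequence is shown for 4 transporters whose windows hold a motif match, chosen after the matches were seen, so that the letters around the matches can be read. RefSeq promoter windows on GRCm38.p6, which run from 250 bases before to 50 after a gene's start, were at hand for 9 of the 10 genes (11 windows). They were searched on both strands for 3 motifs: AGGTCA, the half-site of many nuclear receptors, AGGTCANTGACCT (IR1, the inverted repeat that the bile acid receptor FXR is known to bind) with at most 2 mismatches over its 12 defined bases, and TGACNNNGC, the core of the antioxidant response element. Capitals mark the matches, and half-sites inside an IR1 match are capitalized once with it. The windows are Abcb11 at chr2:69342567-69342866 on the - strand, Slco1b2 at chr6:141629268-141629567 on the + strand, the one of 2 Slc10a1 windows that holds a match at chr12:80968030-80968329 on the - strand and the Abcc4 window of the outermost start at chr14:118706170-118706469 on the - strand.
Abcb11: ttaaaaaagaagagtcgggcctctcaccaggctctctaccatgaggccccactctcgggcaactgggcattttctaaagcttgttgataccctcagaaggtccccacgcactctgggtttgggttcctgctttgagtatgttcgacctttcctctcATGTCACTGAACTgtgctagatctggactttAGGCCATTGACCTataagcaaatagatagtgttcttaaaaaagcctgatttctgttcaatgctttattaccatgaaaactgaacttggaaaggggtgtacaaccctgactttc
Slco1b2: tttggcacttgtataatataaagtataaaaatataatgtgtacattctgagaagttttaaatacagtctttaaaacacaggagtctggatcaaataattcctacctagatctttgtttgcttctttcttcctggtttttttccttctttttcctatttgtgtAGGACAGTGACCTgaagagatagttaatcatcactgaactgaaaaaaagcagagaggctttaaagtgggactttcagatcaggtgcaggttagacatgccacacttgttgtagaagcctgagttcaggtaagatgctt
Slc10a1: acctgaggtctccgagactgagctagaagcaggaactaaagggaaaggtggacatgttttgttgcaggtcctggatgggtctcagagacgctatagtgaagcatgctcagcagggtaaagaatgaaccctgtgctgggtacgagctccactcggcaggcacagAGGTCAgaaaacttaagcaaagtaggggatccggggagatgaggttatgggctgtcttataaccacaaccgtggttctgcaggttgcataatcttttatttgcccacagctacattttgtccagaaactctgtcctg
Abcc4: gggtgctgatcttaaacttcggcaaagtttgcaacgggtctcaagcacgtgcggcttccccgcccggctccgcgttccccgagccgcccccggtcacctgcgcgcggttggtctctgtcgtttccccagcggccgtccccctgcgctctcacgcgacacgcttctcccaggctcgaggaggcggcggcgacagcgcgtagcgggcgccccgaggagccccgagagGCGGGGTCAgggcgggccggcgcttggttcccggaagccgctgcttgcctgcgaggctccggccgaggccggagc
The IR1 letters occurred in 2 of the 11 windows and in 1.14% of all 32851 windows. Abcb11 held 2 of them, the first bases at -94 (atgtcactgaact) and -63 (aggccattgacct) from the start, and Slco1b2 held 1 at -88 (aggacagtgacct). The half-site was in 6 of 11 windows against 16.3% of all, including those 2 windows, where it overlaps an IR1 match, and the Slc10a1 window at -87. The antioxidant core was in 3 of 11 windows against 12.4% of all, and these were the Abcc2 window and both Abcc4 windows. The windows of Slco1a4 and Abcb4 and the other Slc10a1 window held none of the 3 motifs. A match is a string of letters, and no binding was measured.

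The total estimated count was 3.30e+07 to 5.22e+07 per liver, and the detection floor of 3 counts was at 0.0511 to 0.112 CPM, which covers counting error only. CPM are counts relative to library size after TMM scaling, which evens out libraries by a trimmed mean of their gene ratios. Tests were two-sided by edgeR's quasi-likelihood method where no other tool is named, with p-values adjusted by Benjamini-Hochberg over the 17015 tested genes, and a gene was called changed when the value was under 0.05. Bap1 was at 34.8 and 34.8 CPM in NTC-Veh livers, 17.5 and 19.5 in sgBap1-Veh, 29.5 to 31.5 after CCl4 in NTC and 17.0 to 21.8 after CCl4 in sgBap1 livers, so the edited livers kept part of the transcript (log2 fold change -0.91, adjusted p = 0.0208 with vehicle and -0.65, adjusted p = 0.0295 with CCl4). One liver stood apart: sgBap1-CCl4 replicate 2 held 36.4 CPM of Adipoq, 34.5 of Plin1, 144 of Cfd and 256 of Fabp4, all adipocyte genes, against at most 0.0425, 0.0188, 0 and 15.8 in the other 9. It was kept, and values without it are given beside the transporter results it moved most.

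CCl4 lowered uptake transporters most, canalicular transporters less, and raised Abcc4. In NTC livers, 8 of the 10 transporters were lower with CCl4, 1 was higher and 1 was not called, while 26.6% of all tested genes were called lower and 27.4% higher. Median log2 fold changes were -1.27 over the 10 and 0.03 over all tested genes. In sgBap1 livers, 7 were lower, 1 higher and 2 not called, beside 28% of all tested genes lower and 29% higher, with medians of -1.62 and 0.04. By role, the median log2 fold change in NTC livers was -2.998 for the 4 uptake transporters and -0.79 for the 3 canalicular ones. It was 0.03 for the 3 basolateral ones, which ran from -0.69 to 2.80, and this median is the value of Slc51b (SE 0.86), a gene of few counts. In sgBap1 livers the medians were -3.28, -0.96 and -1.06 in the same order, and the basolateral genes ran from -2.35 to 2.61. Without sgBap1-CCl4 replicate 2, 8 transporters were again called in sgBap1 livers, with Slc10a1 at -3.55, Slco1b2 at -3.02, Slco1a4 at -3.03, Abcb11 at -2.06, Abcb4 at -0.43, Abcc2 at -0.91, Abcc3 at -0.91 and Abcc4 at 2.38.

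**Figure D1:**
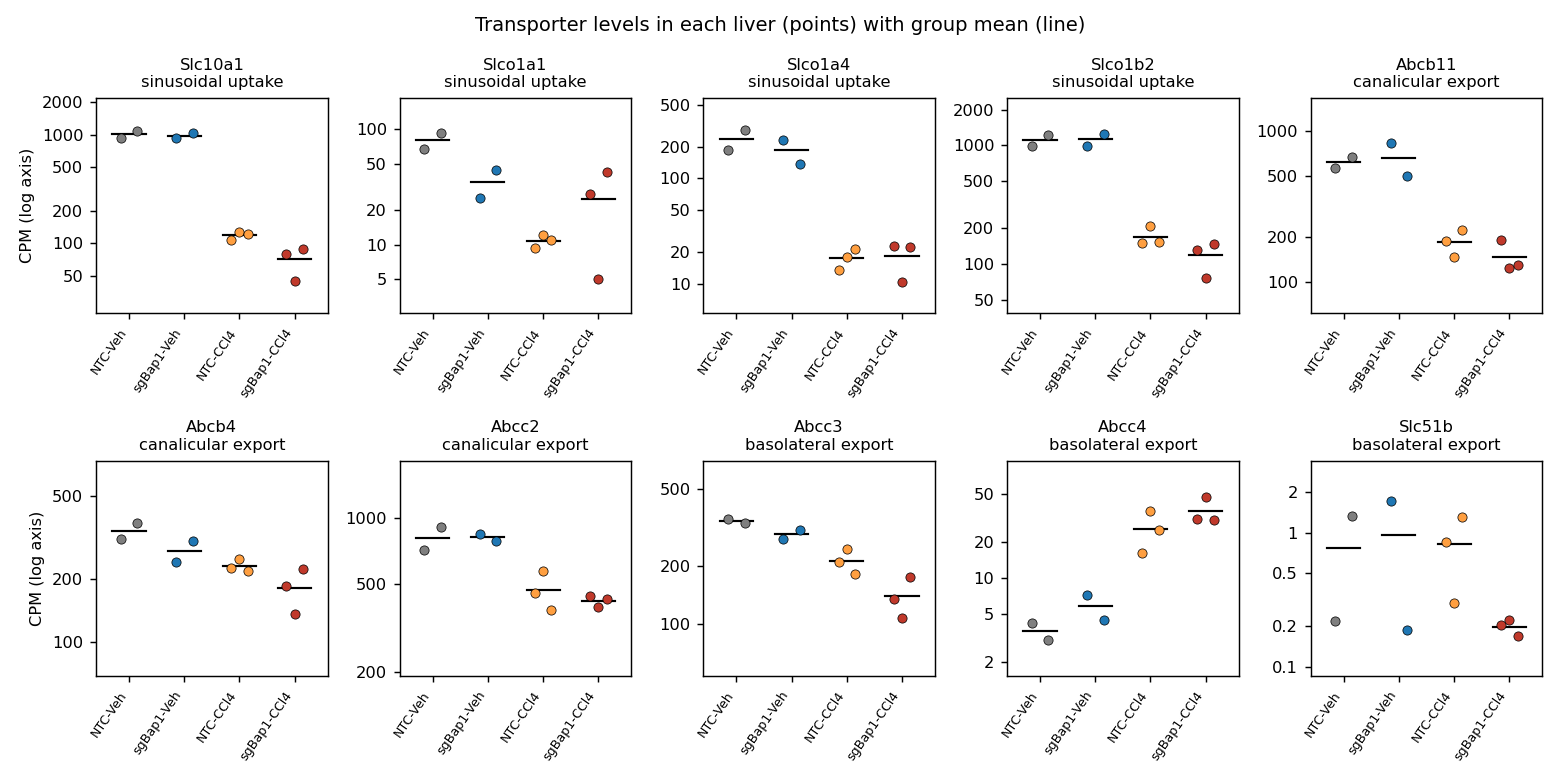
CPM of each transporter (log axis) in each of the 10 livers, with a line at the group mean, in panels by gene and role. Slc10a1, Slco1a4 and Slco1b2 separate vehicle from CCl4 livers by several fold, Abcc4 does so in the other direction, and Slc51b lies between 0.170 and 1.72 CPM in every group.

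Slc10a1 (ENSMUSG00000021135.8, chr12:80953183-80968705 on GRCm38, - strand), the main sodium-dependent bile acid carrier, was at 943 and 1095 CPM in NTC-Veh livers, 926 and 1041 in sgBap1-Veh, 107, 128 and 121 in NTC-CCl4 livers, and 80.0, 44.8 and 87.4 in sgBap1-CCl4 livers. Vehicle livers of both genotypes were alike, every CCl4 liver was far below them, and the 3 sgBap1-CCl4 livers were below the 3 NTC-CCl4 livers. The level fell 8.60-fold in NTC livers (log2 fold change -3.10, SE 0.24, adjusted p = 5.87e-06) and 13.9-fold in sgBap1 livers (-3.80, SE 0.25, adjusted p = 2.21e-06). Bulk RNA cannot tell fewer hepatocytes from less Slc10a1 RNA per hepatocyte, and this holds for each fall of a transporter below.

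Slco1b2 (ENSMUSG00000030236.10, chr6:141629518-141686646, + strand), the liver's OATP1B carrier of bilirubin conjugates, bile acids and statins, was at 986 and 1217 CPM in NTC-Veh livers, 996 and 1256 in sgBap1-Veh, 149, 209 and 153 in NTC-CCl4 livers, and 130.2, 76.6 and 148 in sgBap1-CCl4 livers. Vehicle and CCl4 livers did not overlap. The share of all tested genes that separates vehicle from CCl4 livers was not counted, here or for the transporters below. It fell 6.47-fold in NTC livers (log2 fold change -2.69, SE 0.27, adjusted p = 2.54e-05) and 9.53-fold in sgBap1 livers (-3.25, SE 0.27, adjusted p = 8.92e-06).

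Slco1a4 (ENSMUSG00000030237.14, chr6:141805440-141856199, - strand), which carries bile acids, steroid conjugates and digoxin, was at 186 and 291 CPM in NTC-Veh livers, 232 and 137 in sgBap1-Veh, 13.6, 17.8 and 21.5 in NTC-CCl4 livers, and 22.7, 10.5 and 22.4 in sgBap1-CCl4 livers. Of the 10 transporters it had the largest fitted change with CCl4 in NTC livers, 13.5-fold lower (log2 fold change -3.76, SE 0.40, adjusted p = 9.13e-05), and it was 9.97-fold lower in sgBap1 livers (-3.32, SE 0.39, adjusted p = 0.000160). The vehicle livers ranged over 137 to 291 CPM and none came near a CCl4 liver.

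Slco1a1 (ENSMUSG00000041698.11, chr6:141907282-141946962, - strand), an OATP that male mouse liver expresses more than female liver, varied in another way. It was at 66.8 and 93.5 CPM in NTC-Veh livers, 25.2 and 44.4 in sgBap1-Veh, 9.40, 12.1 and 10.9 in NTC-CCl4 livers, and 27.3, 5.07 and 42.7 in sgBap1-CCl4 livers. The NTC-CCl4 livers were tight and all below NTC-Veh, while 2 of the 3 sgBap1-CCl4 livers lay within the sgBap1-Veh range and the liver with adipocyte transcripts lay below every other liver. With CCl4 it fell 7.42-fold in NTC livers (log2 fold change -2.89, SE 0.72, adjusted p = 0.0107) and was not called in sgBap1 livers (-0.48, SE 0.70, adjusted p = 0.591, and 0.01 without that liver). The difference between these responses, tested as the interaction of treatment and genotype, was 2.41 on the log2 scale (SE 1.02, 95% interval 0.03 to 4.80, adjusted p = 0.476). Of the 50-base stretches of the Slco1a1 and Slco1a4 transcripts, 1.64% and 1.61% occur in other genes, among them each other and Slco1a5 and Slco1a6.

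Abcb11 (ENSMUSG00000027048.15, chr2:69238282-69342616, - strand), the bile salt export pump, was at 569 and 674 CPM in NTC-Veh livers, 825 and 504 in sgBap1-Veh, 187, 147 and 221 in NTC-CCl4 livers, and 189, 124 and 129 in sgBap1-CCl4 livers. No CCl4 liver reached the lowest vehicle liver. The pump fell 3.36-fold in NTC livers (log2 fold change -1.75, SE 0.25, adjusted p = 0.000287) and 4.50-fold in sgBap1 livers (-2.17, SE 0.26, adjusted p = 7.06e-05). Its span overlaps Gm13613 and Gm13614 on the other strand.

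The other canalicular transporters moved less. Abcc2 (ENSMUSG00000025194.5, chr19:43782192-43840740, + strand), the exporter of bilirubin glucuronides, was at 714 and 914 CPM in NTC-Veh livers, 851 and 787 in sgBap1-Veh, 457, 576 and 383 in NTC-CCl4 livers, and 441, 394 and 429 in sgBap1-CCl4 livers. Abcb4 (ENSMUSG00000042476.12, chr5:8893717-8959231, + strand), the phospholipid floppase whose lipid protects the bile duct from bile salts, was at 313 and 372 CPM in NTC-Veh livers, 243 and 305 in sgBap1-Veh, 227, 250.2 and 219 in NTC-CCl4 livers, and 185, 137 and 223 in sgBap1-CCl4 livers. Vehicle and CCl4 livers of a genotype did not overlap for either gene, and how many of all tested genes did so was not counted. In Abcb4 the gap was small: the lowest sgBap1-Veh liver, at 243 CPM, lay below the highest NTC-CCl4 liver.

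For Abcc2, the log2 fold change with CCl4 was -0.79 (SE 0.17, adjusted p = 0.00301) in NTC and -0.96 (SE 0.17, adjusted p = 0.000843) in sgBap1 livers. For Abcb4 it was -0.56 (SE 0.19, adjusted p = 0.0265) and -0.60 (SE 0.19, adjusted p = 0.0197). Calls of the smaller changes depended on scaling. By library size alone, with no TMM, the median change of all genes on the log2 scale moved to 0.50 in NTC and 0.52 in sgBap1 livers, and 80.5% and 78.3% of called genes were higher in place of 50.8% and 50.9%. On that scale Abcb4 was at -0.09 (adjusted p = 0.626) in NTC and -0.13 (adjusted p = 0.507) in sgBap1 livers, and in NTC livers Abcc2 was at -0.32 (adjusted p = 0.124) and Abcc3 at -0.21 (adjusted p = 0.243). The 4 uptake genes, Abcb11 and Abcc4 kept their direction and call in NTC livers. With TMM, the Abcb4 call in NTC livers was lost without NTC-Veh replicate 2 (adjusted p = 0.181), NTC-CCl4 replicate 1 (0.0689) or NTC-CCl4 replicate 3 (0.0769), and the call in sgBap1 livers was lost without sgBap1-Veh replicate 2 (0.172) or when only the sgBap1 livers were fitted (0.0568).

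**Figure D2:**
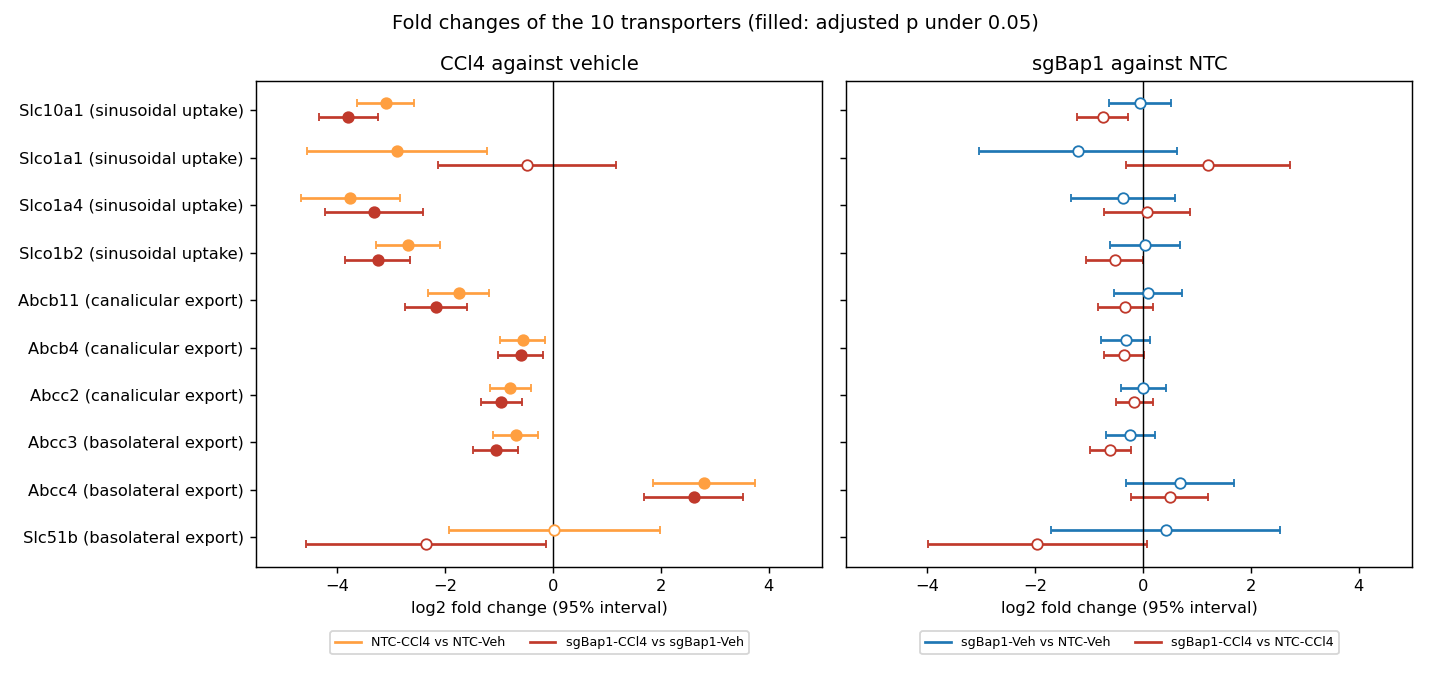
Log2 fold changes of the 10 transporters with 95% intervals, for CCl4 against vehicle in each genotype (left) and for sgBap1 against NTC in each treatment (right), with filled points where the adjusted p was under 0.05. On the left, 9 points are filled in NTC and 8 in sgBap1 livers, and on the right none is.

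Abcc4 (ENSMUSG00000032849.14, chr14:118482692-118706219, - strand), a basolateral exporter of bile acids with glutathione, of cyclic nucleotides and of sulfates, was the only 1 of the 10 called higher. It was at 4.27 and 3.08 CPM in NTC-Veh livers, 7.24 and 4.49 in sgBap1-Veh, 16.1, 35.8 and 25.2 in NTC-CCl4 livers, and 31.1, 47.2 and 30.3 in sgBap1-CCl4 livers. Every CCl4 liver was above every vehicle liver, and both sgBap1-Veh livers were above both NTC-Veh livers. It rose 6.99-fold in NTC livers (log2 fold change 2.80, SE 0.41, adjusted p = 0.000547) and 6.12-fold in sgBap1 livers (2.61, SE 0.40, adjusted p = 0.000659). Bulk RNA cannot tell a rise within hepatocytes from RNA of other cells, and the source of the rise was not tested. The gene overlaps Gm49033 and Gm23302 on the other strand.

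Abcc3 (ENSMUSG00000020865.16, chr11:94343295-94392997, - strand), the basolateral exporter of glucuronides, was at 349 and 333 CPM in NTC-Veh livers, 275 and 306 in sgBap1-Veh, 210.1, 243 and 181 in NTC-CCl4 livers, and 134, 108 and 176 in sgBap1-CCl4 livers. It went the other way from Abcc4, and its 4 groups did not overlap. Between genotypes, 40.9% of all tested genes did not overlap with vehicle and 20.3% with CCl4. The share for all 4 groups was not counted. It fell 1.61-fold in NTC livers (log2 fold change -0.69, SE 0.19, adjusted p = 0.0100) and 2.09-fold in sgBap1 livers (-1.06, SE 0.19, adjusted p = 0.000767). The call in NTC livers was lost without NTC-Veh replicate 1 (adjusted p = 0.0585).

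Slc51b (ENSMUSG00000053862.6, chr9:65412714-65422955, - strand), whose product forms the bile acid exporter of the ileum and bile duct with that of Slc51a, was close to the limit of these libraries. It had 8 and 48 counts in NTC-Veh livers, 64 and 5 in sgBap1-Veh, 40, 16 and 50 in NTC-CCl4 livers, and 12, 13 and 8 in sgBap1-CCl4 livers, or 0.170 to 1.72 CPM. Within each vehicle group 1 liver was several fold above the other, beyond counting error (exact Poisson 95% intervals 3.45 to 15.8 against 35.4 to 63.6 counts in NTC-Veh). The log2 fold change with CCl4 was 0.03 (SE 0.86, adjusted p = 0.981) in NTC and -2.35 (SE 0.98, adjusted p = 0.0683) in sgBap1 livers. The second value was 0.10 (adjusted p = 0.967) without sgBap1-Veh replicate 1 and -3.08 (0.0200) without replicate 2. It also passed 0.05 by DESeq2's Wald test (adjusted p = 0.0267), with only the sgBap1 livers fitted (edgeR, 0.0459) and without NTC-Veh replicate 1 (0.0489) or 2 (0.0487), so its call turned on the setting and on 1 vehicle liver. Slc51b overlaps Rasl12 on the other strand, and Slc51a had at most 7.004 counts in any liver.

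Beside these changes, some markers of other cells moved with CCl4, and their part in the transporter values was not tested. Over all tested genes, 27.4% were called higher and 26.6% lower in NTC livers, and 29% and 28% in sgBap1 livers. The 3 hepatocyte markers lower in sgBap1 livers and the 2 cholangiocyte markers higher in each genotype, given below, are near these shares. Of 10 hepatocyte markers, 6 were lower after CCl4 in NTC livers (3 without NTC-Veh replicate 1), and 3 were lower and 1 higher with CCl4 in sgBap1 livers (5 lower without sgBap1-CCl4 replicate 3). Their median log2 fold change was -0.71 and -0.49. In NTC livers the 10 ran from -1.76 for Cps1 (urea cycle) to 0.41, with Asgr1 (asialoglycoprotein receptor) at -1.11. In sgBap1 livers they ran from -1.41 to 0.63. Their summed level was 161615 to 197826 CPM in the NTC-Veh group and 141072 to 147660 CPM in the sgBap1-Veh group, against 118491 to 129526 CPM for NTC-CCl4 and 102465 to 131441 CPM for sgBap1-CCl4, and none was at 0. Leukocyte markers summed to 133 to 189.6 CPM, 269.7 to 358, 599.5 to 773 and 595 to 801 in the same order, with 5 of 8 higher in NTC and 4 higher and 1 lower in sgBap1 livers. Stellate and endothelial markers summed to 225 to 261, 254 to 286 and 404.5 to 485 CPM, and to 463, 871 and 403 CPM in the sgBap1-CCl4 livers. Of these 6 markers, 4 were higher in NTC and 3 in sgBap1 livers. The 871 CPM was that of sgBap1-CCl4 replicate 2, the liver with adipocyte transcripts. It also had the lowest hepatocyte sum (102465 CPM) and the highest leukocyte sum (801 CPM) of its group. Cholangiocyte markers summed to 59.5 to 67.4, 55.1 to 63.0, 206 to 264 and 285 to 379 CPM, with 2 of 7 higher in each genotype (Spp1 and Sox9). Krt19, Krt7, Epcam and Cftr stayed at or under 3.92 CPM in every liver. Most of each cholangiocyte sum was Spp1, so the rise of the sum is mainly that of 1 gene. After CCl4, the NTC livers held 180, 234 and 181 CPM of Spp1, and the sgBap1 livers 335, 352 and 260 CPM. Alb was likewise the largest part of the hepatocyte sum in every liver, and Lyz2 of the leukocyte sum after CCl4. The 5 adipocyte markers summed to 4.88 to 5.04, 5.65 to 6.001 and 11.2 to 15.8 CPM, and to 13.3, 471 and 13.9 CPM in the sgBap1-CCl4 livers, with Cfd at 0 in every liver but sgBap1-CCl4 replicate 2.

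Divided by exon length, the transporters changed order with CCl4. The length is that of all annotated exons of a gene merged, which can exceed that of the transcript expressed. In NTC-Veh livers the level was 463 ± 48.8 CPM per kb for Slc10a1, 223 ± 33.04 for Slco1b2, 121 ± 14.4 for Abcb11, 95.4 ± 16.6 for Abcc2, 59.8 ± 1.98 for Abcc3, 37.1 ± 11.6 for Slco1a4, 36.5 ± 4.38 for Abcb4, 15.2 ± 3.57 for Slco1a1, 1.09 ± 1.11 for Slc51b and 0.58 ± 0.13 for Abcc4 (mean ± SD, n = 2). The neighbours Slco1a4 and Abcb4, and Slc51b and Abcc4, differed by less than their spread. In sgBap1-Veh livers the order was the same but for Abcb4 (29.2 CPM per kb) and Slco1a4 (28.8 CPM per kb), which again differed by less than their spread.

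In NTC-CCl4 livers Abcc2 (55.3 ± 11.4 CPM per kb) and Slc10a1 (53.9 ± 4.75 CPM per kb) led without differing beyond their spread (mean ± SD, n = 3). Abcc3 (37.1 ± 5.48 CPM per kb), Abcb11 (35.9 ± 7.19 CPM per kb) and Slco1b2 (34.5 ± 6.78 CPM per kb) followed, also within their spread. Below Abcb4 (24.7 ± 1.75 CPM per kb), the order had Abcc4 at 4.02 ± 1.54, Slco1a4 at 2.75 ± 0.62, Slco1a1 at 2.05 ± 0.26 and Slc51b at 1.15 ± 0.71 CPM per kb. Abcc4 and Slco1a4 differed there by less than the SD of Abcc4. In sgBap1-CCl4 livers Abcc2 was at 49.4 ± 2.87 CPM per kb and Slc10a1 at 32.2 ± 10.3 CPM per kb (mean ± SD, n = 3), Abcc4 was at 5.67 ± 1.49 CPM per kb, and Slc51b was last at 0.28 ± 0.04 CPM per kb.

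Summed over the 4 uptake genes, the level per length was 671 and 808 CPM per kb in NTC-Veh livers, 664 and 758 in sgBap1-Veh, 82.9, 105 and 91.3 in NTC-CCl4 livers, and 71.5, 38.5 and 81.3 in sgBap1-CCl4 livers. The sum of the basolateral genes moved less, from 60.8 and 62.2 CPM per kb in NTC-Veh to 37.55 to 48.75 in NTC-CCl4 livers. It was mostly Abcc3, at a mean of 59.8 of 61.5 CPM per kb in NTC-Veh and 37.1 of 42.3 in NTC-CCl4 livers. Abcc4 was at 0.58 and 4.02, so the sum hides its rise. The uptake sum was 10.8 and 13.3 times the basolateral sum in NTC-Veh livers and 12.8 and 13.9 times in sgBap1-Veh livers. After CCl4 the uptake sum was 2.04 to 2.43 times the basolateral sum in NTC and 1.45 to 2.49 times in sgBap1 livers. These are ratios of transcripts, and no transport was measured. A ratio within a liver does not depend on library scaling, and vehicle and CCl4 livers did not overlap. Against the canalicular genes, the ratio was 2.93 ± 0.03 with vehicle in NTC and 2.86 ± 0.76 with vehicle in sgBap1 livers (mean ± SD, n = 2 each). After CCl4 it was 0.80 ± 0.07 in NTC and 0.65 ± 0.18 in sgBap1 livers (mean ± SD, n = 3 each). Between single genes, Slc10a1 was 838 ± 278 times Abcc4 per length in NTC-Veh livers (n = 2) and 14.5 ± 4.52 times in NTC-CCl4 livers (n = 3).

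**Figure D3:**
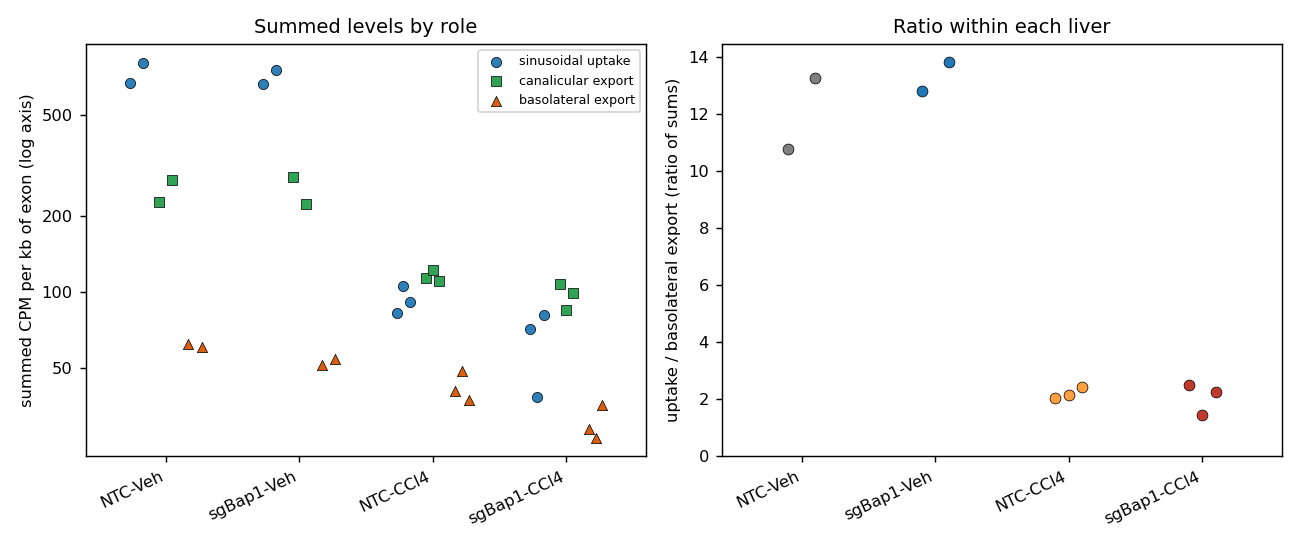
Left, summed CPM per kb of exon (log axis) of the 4 uptake, 3 canalicular and 3 basolateral transporters in each liver. Right, the ratio of the uptake to the basolateral sum, which lies at 10.8 to 13.9 in the 4 vehicle livers and at 1.45 to 2.49 in the 6 CCl4 livers.

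Editing of Bap1 alone gave no call among the transporters. With vehicle, 0 of 10 differed between sgBap1 and NTC livers (0.406% of all tested genes were called), 0 had an unadjusted p under 0.05 (12.3% of all), and DESeq2's Wald test called 0 (3.74% of the genes it adjusts). The log2 fold changes of Slc10a1 (-0.05, 95% interval -0.63 to 0.53), Slco1b2 (0.03, -0.62 to 0.68), Abcb11 (0.10, -0.53 to 0.73) and Abcc2 (0.01, -0.41 to 0.43) were near 0 with these intervals. The livers of the groups did not overlap for 4 of the 10, against 40.9% of all tested genes, a share near that of the transporters. These were Slco1a1 (log2 fold change -1.21, 95% interval -3.03 to 0.62, adjusted p = 0.626), Abcb4 (-0.32, adjusted p = 0.610), Abcc3 (-0.23, adjusted p = 0.744) and Abcc4 (0.69, adjusted p = 0.612). With 2 livers a group, the interval of Slco1a1 runs from 0.122 to 1.54 times the NTC level.

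With CCl4, again 0 of 10 differed between sgBap1 and NTC livers by edgeR's test (0.329% of all tested genes were called), and 2 had an unadjusted p under 0.05 (14% of all). These were Slc10a1 (log2 fold change -0.74, SE 0.21, 95% interval -1.22 to -0.27, adjusted p = 0.161) and Abcc3 (-0.60, SE 0.17, 95% interval -0.98 to -0.23, adjusted p = 0.154). Both were lower in every sgBap1-CCl4 liver than in any NTC-CCl4 liver. DESeq2's Wald test, which calls 3.39% of the genes it adjusts here, called both (adjusted p = 0.0193 and 0.0265). Without sgBap1-CCl4 replicate 2 they were at -0.50 (adjusted p = 0.175) and -0.45 (adjusted p = 0.305). Slco1b2 (-0.53, adjusted p = 0.361, and -0.29, adjusted p = 0.602 without that liver) and Slc51b (-1.95, adjusted p = 0.372) also did not overlap between the groups, which makes 4 of 10 against 20.3% of all tested genes. Slco1a1, whose groups overlapped, was at 1.21 (edgeR, adjusted p = 0.453) and at 1.70 (adjusted p = 0.114) without sgBap1-CCl4 replicate 2. Replicate 2 had the lowest level of its group in all 4 uptake genes, in all 3 canalicular genes and in Abcc3, and the highest in Abcc4.

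The interaction of treatment and genotype called 0 of 10 transporters and 0% of all tested genes. At an unadjusted p under 0.05 it held Slco1a1 alone of the 10 (10.4% of all), and DESeq2's Wald test called 0 of 10 (2.95% of the genes it adjusts). Without sgBap1-CCl4 replicate 2 the interaction of Slco1a1 was 2.90 (adjusted p = 0.0796) and that of Slc10a1 -0.45 (adjusted p = 0.373), and without sgBap1-CCl4 replicate 3 that of Slco1a1 was 1.78. Slc10a1 was at -0.69 (95% interval -1.44 to 0.05, adjusted p = 0.529), Abcc4 at -0.19 (-1.41 to 1.03, adjusted p = 0.944) and Abcb4 at -0.03 (-0.62 to 0.56, adjusted p = 0.985) on the log2 scale. The comparisons of CCl4 with vehicle and of sgBap1 with NTC share livers, so their values are not independent of each other.

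Around the 10 transporters, the wider pathway was read from lists of other transporters, regulators and enzymes. Of 19 other transporters of bile acids, anions, cations and lipids, 16 were tested, of which 5 were higher and 7 lower with CCl4 in NTC livers and 3 and 7 in sgBap1 livers (5 higher without sgBap1-Veh replicate 1). Over all tested genes, 27.4% were higher and 26.6% lower in NTC livers, and 29% and 28% in sgBap1 livers, and the lists below can be read against the same shares. Abcc1 (MRP1, a basolateral exporter little expressed by resting hepatocytes) went from 2.29 and 1.63 CPM in NTC-Veh to 14.2 to 20.01 CPM in NTC-CCl4 livers (log2 fold change 3.08, SE 0.29, adjusted p = 2.08e-05). Abcb1b (P-glycoprotein) rose by 2.22 on the log2 scale (adjusted p = 0.00141), and Slc22a7 (OAT2, a basolateral organic anion carrier) was at -2.52 (adjusted p = 4.39e-05).

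Slc10a2 (ASBT), the sodium-dependent bile acid carrier of ileum and bile duct cells and the relative of Slc10a1, was at 13.0 and 5.93 CPM in NTC-Veh livers, 41.7 and 54.6 in sgBap1-Veh, 49.3, 27.7 and 46.2 in NTC-CCl4 livers, and 67.0, 40.9 and 65.7 in sgBap1-CCl4 livers. The NTC-Veh livers were below all 8 others. It rose with CCl4 in NTC livers (log2 fold change 2.11, SE 0.41, adjusted p = 0.00271, and 2.79 without NTC-Veh replicate 1) and was not called in sgBap1 livers (0.27, SE 0.37, adjusted p = 0.571). Between sgBap1-Veh and NTC-Veh livers the log2 fold change was 2.34 (SE 0.44, adjusted p = 0.0737), and the interaction was -1.85 (SE 0.54, adjusted p = 0.258).

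Of 10 nuclear receptors and regulators of these genes, 7 were lower with CCl4 in NTC livers and 8 in sgBap1 livers, with 0 higher in either. Nr1i3 (CAR, a xenobiotic receptor) was at 527 and 536 CPM in NTC-Veh and 79.8 to 127 in NTC-CCl4 livers (log2 fold change -2.45). Nr1h4, which encodes FXR, was at 156 and 165 CPM in NTC-Veh and 40.5 to 57.6 CPM in NTC-CCl4 livers (-1.69). Nr1i2 (PXR) was at -0.96 and Ppara (fatty acid receptor) at -0.83. Of 10 enzymes of bile acid synthesis and conjugation, 9 were lower in NTC and 10 in sgBap1 livers. Cyp7a1, the rate-limiting enzyme, went from 271 and 481 CPM to 0.599 to 3.89 CPM in NTC-CCl4 livers (log2 fold change -7.20, SE 0.77, adjusted p = 0.000143). Akr1d1, a reductase of the steroid ring, was at -3.71, Slc27a5 (bile acid CoA ligase) at -2.80 and Cyp27a1 (sterol 27-hydroxylase) at -2.41. Of 6 targets of the stress factor NRF2, 5 were higher and 1 lower in NTC livers and 2 and 1 in sgBap1 livers. The count higher in NTC livers was 3 without NTC-Veh replicate 1 or 2, and in sgBap1 livers it was 4 without NTC-CCl4 replicate 2 and 1 without sgBap1-Veh replicate 1. Hmox1 (heme oxygenase) was at a log2 fold change of 2.75 in NTC livers. Srxn1 (sulfiredoxin) went from 48.9 and 50.9 CPM in NTC-Veh to 135, 368 and 135 CPM in NTC-CCl4 livers, a log2 fold change of 2.09 (adjusted p = 0.00411) that was 1.43 (adjusted p = 3.24e-05) without NTC-CCl4 replicate 2.

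**Figure D4:**
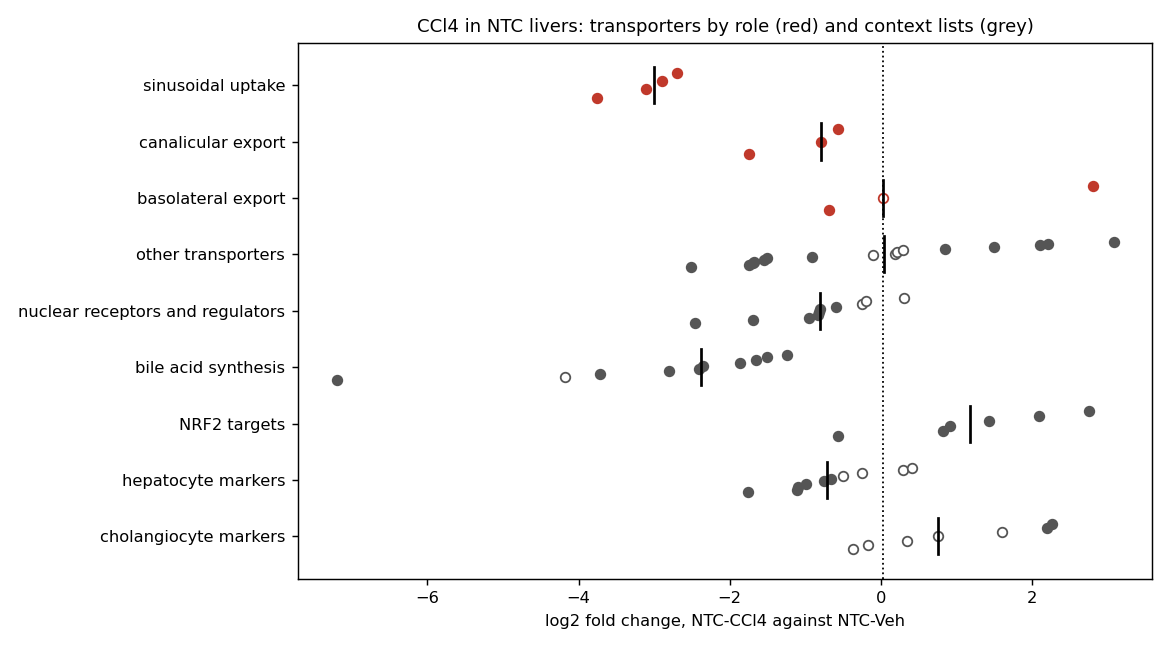
Log2 fold changes of NTC-CCl4 against NTC-Veh livers for the transporters by role (red) and for genes of the context lists (grey), with filled points where the adjusted p was under 0.05, a bar at each list's median and a dotted line at the median of all tested genes (0.03). The 4 uptake genes lie between -3.76 and -2.69 and the enzymes of bile acid synthesis around a median of -2.38.

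The genes whose pattern over the 10 livers was most like that of the 3 transporters with the largest changes with CCl4 in NTC livers were sought among 12027 genes that averaged 100 counts or more, by the root-mean-square difference of centred log2 CPM. For Slc10a1 they were Rdh16 (difference 0.19), Car5a (0.23) and Gm36419 (0.24). For Slco1a4 they were Scnn1a (0.32), Hpd (0.36) and Ces2a (0.39). Slco1a1 had no gene as close, with Cyp4a10 at 0.65, Ces3a at 0.67 and Idi1 at 0.69.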

How the data were processed

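The authors made stranded mRNA libraries, aligned reads to GRCm38 with STAR (2.7.6a) and estimated gene counts with Salmon (1.4.0), versions per the submitters' processing notes. The library type set in Salmon is not given in the sources used here. The deposited table holds these estimated counts (expected counts) by gene symbol without normalization; 9.22% of values are not whole, and all were rounded. In R 4.3.3, edgeR 4.0.16 kept 17015 genes (filterByExpr), scaled by TMM and fitted one quasi-likelihood model of the 4 groups, in place of the paper's DESeq2, which was an alternative (1.42.0). SE is the log2 fold change divided by the square root of F. Other alternatives were DESeq2 size factors, library size alone, 2 other count filters, the quasi-likelihood method of edgeR 3, a replicate block, only the livers compared, and each liver left out. The code was tested on simulated data.

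The 10 transporters, the gene lists and the naming rules were chosen with earlier results of these data known. The rule was to name, of each list, the 4 genes with the largest called CCl4 change in NTC livers and any called between genotypes. Of the NRF2 targets and the hepatocyte and leukocyte markers only some of these are named, and of the stellate and endothelial markers none. Cyp8b1, Krt19, Krt7, Epcam, Cftr, Slc51a and the adipocyte genes were added after their values were seen. Positions and exon lengths are of GENCODE vM21, not the annotation of the counting, and promoters are RefSeq's. No batch is named, and each library was taken as 1 mouse, so p-values measure the spread between these libraries. Gene counts differed between libraries of a group far beyond sampling noise.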

Additional observations from a re-analysis of the deposited data

Results flagged for a closer look

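In 3 genes of the context lists, every sgBap1 liver lay on one side of the NTC mean with vehicle and on the other side with CCl4. Akr1d1 had a log2 fold change of 0.14 with vehicle and -1.18 with CCl4, an interaction of -1.32 (edgeR, adjusted p = 0.0777). Ptprc, a pan-leukocyte marker, had 1.05 and -0.12, an interaction of -1.17 (adjusted p = 0.0835). Gclc, of glutathione synthesis, had 0.17 and -0.62, an interaction of -0.79 (adjusted p = 0.724), with NTC-CCl4 replicate 2 at 732 CPM against 257 and 292 in the other 2 livers. None of these interactions passed 0.05. Of the transporters, Slco1a1 (-1.21 with vehicle and 1.21 with CCl4, interaction 2.41, adjusted p = 0.476), Slc51b (0.42 and -1.95, interaction -2.38, adjusted p = 0.597) and Slco1a4 (-0.37 and 0.07, interaction 0.44, adjusted p = 0.850) also changed sign, but not in every liver. The same held for Slco1b2 (0.03 and -0.53, interaction adjusted p = 0.678), Abcb11 (0.10 and -0.33, 0.768) and Abcc2 (0.01 and -0.16, 0.871).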

How the results depend on the processing

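Of the log2 fold changes of the 10 transporters over the 5 comparisons, 378 of 390 under the settings that keep all livers, and 465 of 500 with 1 liver left out, kept their direction and their side of the threshold. The cause of the changes below was not tested. Scaling by library size alone called 32 genes for sgBap1 with vehicle (69 with TMM) and 2 for the interaction (0 with TMM). With no count filter, 94 genes were called for sgBap1 with CCl4 (56 with the filter) and 34 for the interaction, and Abcc2 with vehicle was at -0.0067. DESeq2's Wald test called 562 genes for sgBap1 with vehicle, 509 with CCl4, of which 2 were transporters, and 424 for the interaction. Fitting only the livers compared called 27 and 28 genes for sgBap1 with vehicle and with CCl4, with Abcc2 with vehicle at -0.014, and in sgBap1 livers with CCl4 lost the call of Abcb4 (adjusted p = 0.0568) and gained that of Slc51b (0.0459).

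With the replicate block, 1 gene was called for sgBap1 with vehicle and 24 with CCl4, and Slc51b with CCl4 in NTC livers was at -0.36. The replicate numbers did not pair the livers: same-numbered livers of 2 groups correlated at -0.149 to 0.102, and 0 of 6 CCl4 livers correlated best with their own number.

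Leaving out each liver in turn, genes called for sgBap1 ranged from 0 to 150 with vehicle and from 1 to 71 with CCl4, and for the interaction from 0 to 7. Without sgBap1-CCl4 replicate 2 these counts were 150, 24 and 7, and the highest with CCl4 was without replicate 3. With CCl4, Slc51b ranged from -0.76 to 1.84 in NTC and from -3.08 to 0.10 in sgBap1 livers, and Slco1a1 in sgBap1 livers from -1.11 to 0.0098. For sgBap1 with vehicle, ranges that crossed 0 were -0.16 to 0.060 for Slc10a1, -0.14 to 0.19 for Slco1b2, -0.31 to 0.41 for Abcb11, -0.16 to 0.20 for Abcc2 and -2.03 to 2.23 for Slc51b. For sgBap1 with CCl4 they were -0.10 to 0.36 for Slco1a4 and -0.29 to 0.0058 for Abcc2. For the interaction they were -0.22 to 0.14 for Abcb4, -0.48 to 0.21 for Abcc4 and -4.19 to 0.075 for Slc51b. Where 1 liver of a vehicle group remained, it was assumed to vary like the other groups. With 2 or 3 livers a group, small differences between genotypes were not detectable. Leaving out livers for the context lists was chosen after seeing the data.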

Other observations

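Akr1d1, which makes the 5-beta ring of bile acids, was the only gene of the bile acid synthesis list called between genotypes, with 21.5, 20.9 and 20.3 CPM in NTC-CCl4 and 11.4, 8.47 and 7.69 CPM in sgBap1-CCl4 livers (log2 fold change -1.18, SE 0.16, edgeR adjusted p = 0.0210). The other 9 genes of the list were not called there, and 0.329% of all tested genes were. The Akr1d1 call was not checked with livers left out. Calls over all genes in this comparison went from 56 to 1 without NTC-CCl4 replicate 1. They went to 2 without NTC-CCl4 replicate 3 or sgBap1-CCl4 replicate 1. Cyp8b1, the 12-alpha hydroxylase that sets the cholic acid share of bile, was at 211 and 297 CPM in NTC-Veh livers but at 19.3 and 334 in sgBap1-Veh livers, and at 1.42 to 31.1 CPM in the 6 CCl4 livers. Its log2 fold change with CCl4 was -4.17 (SE 1.54, adjusted p = 0.0518) in NTC and -4.69 (SE 1.58, adjusted p = 0.0360) in sgBap1 livers, where it was -1.50 (adjusted p = 0.475) without sgBap1-Veh replicate 2.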
